A study of Mus musculus with 17 samples.

Results

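The Runx family genes described here are Runx1, Runx2 and Runx3, which encode DNA-binding transcription factors, Cbfb, which encodes the partner subunit that all of them bind, and Runx1t1, which encodes a corepressor also known as ETO. The members are all CCCGGG sites between 2000 bp before the annotated gene start and the gene end that were covered by at least 20 reads in at least 13 of 17 mice. This rule gave 23 sites out of 22561 autosomal sites with the same coverage and 173449 genomic sites in all. Runx1 held 3 of them, Runx2 4, Runx3 12, Cbfb 2 and Runx1t1 2. The list started from 1 site in an intron of Runx1 that was already known to have gained methylation in old mice. The genes were thus chosen by the methylation of that site in the age comparison, and its values are given as a description without a test. The other 22 sites were tested.

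DNA methylation was measured with Digital Restriction Enzyme Analysis of Methylation (DREAM) on blood, taken whole, from C57BL/6 mice, and methylation is given as the percent of reads at a site that were methylated. AL marks food ad libitum and CR caloric restriction, which gave 5 AL-young mice (4 months old, 2 females and 3 males), 7 AL-old mice (29 to 33 months, 5 females and 2 males) and 5 CR-old mice (32 to 38 months, 2 females and 3 males). The comparisons address how methylation drifts with age and whether caloric restriction opposes that drift. Each mouse is a separate animal, and a number after the group name identifies it.

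Reads at genomic sites numbered between 6407519 (AL-old 27) and 51612805 (AL-young 30). The libraries were not alike in their spiked methylation standards. The authors' adjustment scaled the odds of methylation of each mouse by a factor that was at least 1.3 in 6 mice, AL-old 08, 09, 10, 13 and 14 and CR-old 06, all of them female, and lay between 0.872 and 1.13 in the other 11. These 6 are called high-correction mice. AL-old 25 and 27, both male and 33 months old, were the AL-old mice without a high factor, while the other AL-old mice were females of 29 or 30 months. The high factor, sex and age thus cannot be told apart within the AL-old group. In whole blood a change in the shares of cell types and a change within a cell type cannot be told apart either.

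RUNX proteins bind DNA through a conserved Runt domain, and binding of the Cbfb subunit stabilises them on DNA. Runx1 is needed for the emergence of blood stem cells and for later blood cell formation, Runx2 is the master regulator of bone formation, and Runx3 acts in T cells, where it silences Cd4 in cytotoxic T cells. Runx1 and Runx3 are each transcribed from a distal and a proximal promoter. Runx1t1 is best known as the fusion partner of RUNX1 in acute myeloid leukemia, where the fusion protein recruits corepressors to RUNX targets. CpG islands (CGI) at promoters are usually unmethylated, whereas CpG sites inside genes and outside islands are often methylated.

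The sequences below show the sites on which the results turn, read from the plus strand of NCBIM37 (mm9), 5′ to 3′, with each CCCGGG recognition sequence in capitals. The Runx1 intron window is shown because it holds the gained site and an unmethylated neighbour 79 bp away. Its coordinates are chr16:92644877-92645041.
Runx1 intron, gained site first: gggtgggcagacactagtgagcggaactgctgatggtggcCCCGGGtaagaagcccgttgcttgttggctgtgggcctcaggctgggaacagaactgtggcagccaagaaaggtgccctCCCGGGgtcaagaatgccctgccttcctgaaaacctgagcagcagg
The Runx1 coding exon window at chr16:92644513-92644598 holds the methylated site on the other side.
Runx1 coding exon: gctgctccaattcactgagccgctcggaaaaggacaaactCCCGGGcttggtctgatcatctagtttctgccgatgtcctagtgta
The Runx2 intron stretch at chr17:44929144-44929439, the Runx3 intron stretch at chr4:134687032-134687305 and the stretch upstream of Runx1t1 at chr4:13670253-13670378 hold sites with higher methylation in AL-old than in AL-young mice.
Runx2 intron: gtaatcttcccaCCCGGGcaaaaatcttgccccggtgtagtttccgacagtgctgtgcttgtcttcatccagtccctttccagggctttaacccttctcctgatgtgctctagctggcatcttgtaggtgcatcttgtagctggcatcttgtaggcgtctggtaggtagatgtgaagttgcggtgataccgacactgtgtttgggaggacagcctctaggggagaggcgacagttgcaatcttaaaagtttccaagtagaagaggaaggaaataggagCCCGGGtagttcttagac
Runx3 intron: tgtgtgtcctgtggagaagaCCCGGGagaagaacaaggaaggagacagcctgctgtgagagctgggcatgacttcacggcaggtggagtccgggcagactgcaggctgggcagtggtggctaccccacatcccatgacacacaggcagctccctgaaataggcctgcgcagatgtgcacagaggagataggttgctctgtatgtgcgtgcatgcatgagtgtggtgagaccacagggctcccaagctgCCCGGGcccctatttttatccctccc
Runx1t1 upstream of the start: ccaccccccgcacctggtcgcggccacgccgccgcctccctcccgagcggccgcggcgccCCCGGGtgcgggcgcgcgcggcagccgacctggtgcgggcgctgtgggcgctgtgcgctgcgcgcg
The Runx3 island stretch at chr4:134706303-134706590 and the Runx3 coding exon stretch at chr4:134731301-134731473 are shown because their paired sites behaved differently, one pair far apart in level and one close together.
Runx3 island: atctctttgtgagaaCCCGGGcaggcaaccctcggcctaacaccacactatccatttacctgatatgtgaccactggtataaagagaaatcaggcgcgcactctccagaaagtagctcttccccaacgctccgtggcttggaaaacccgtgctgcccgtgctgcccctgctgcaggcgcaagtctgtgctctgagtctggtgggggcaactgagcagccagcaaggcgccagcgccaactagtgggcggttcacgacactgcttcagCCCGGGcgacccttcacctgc
Runx3 coding exon: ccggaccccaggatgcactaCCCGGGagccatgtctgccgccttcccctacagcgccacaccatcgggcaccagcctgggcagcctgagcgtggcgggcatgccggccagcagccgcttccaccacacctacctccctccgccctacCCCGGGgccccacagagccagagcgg
The Runx1 intron window held 4 CpG dinucleotides in 165 bases, at an observed over expected ratio of 0.27. The Runx1t1 window held 25 in 126 bases, at a ratio of 1.09. The letters TGTGGT or TGCGGT, the core of RUNX binding sequences, were searched on both strands in 306 bases around each site. They occurred around 5 of the 23 members (21.7%) and around 21.3% of all 22561 sites. Neither motif occurred within the window of the gained Runx1 site or of the Runx1t1 sites. The Runx2 site at chr17:44929422-44929427 had TGCGGT 100 bases before its start on the plus strand, and 3 copies of TGTGGT lay around the Runx3 site at chr4:134687280-134687285.

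In AL-young mice 14 of 23 members (60.9%) were methylated below 5%, as were 60.7% of all tested sites. With a promoter reaching 1000 bp upstream and 500 bp downstream of a start, 3 members lay in a promoter within a CGI, 3 in Runx3 promoters outside islands, 7 in gene body islands and 10 in gene bodies outside islands. Of the 22 tested members, 5 had higher methylation in AL-old than in AL-young mice and 0 had lower methylation, where a call required an adjusted p-value under 0.05 in edgeR's quasi-likelihood test with Benjamini-Hochberg adjustment over all 22561 sites and a difference of at least 2 percentage points. Over all tested sites 3.74% were called higher and 6.09% lower. The 5 calls are not independent. They include both sites of a Runx2 intron pair and of a Runx1t1 pair, with Pearson correlations of methylation of 0.98 and 0.99 over 17 mice. The median difference over the 22 members was 0.19 points, against -0.02 points over all sites.

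The higher sites lay in 2 of the location classes. Shares of calls over all sites of each class were not computed, so whether the classes differ in the same way elsewhere is not known. Both Runx1t1 sites, which share an island, were among the 3 promoter island members. The other 3 called sites were among the 9 tested gene body members outside islands, in introns of Runx2 and Runx3. In the main edgeR fit on all mice, none of the 3 Runx3 promoter members outside islands and none of the 7 gene body island members was called in the age comparison. In neither class did a member reach an unadjusted p-value under 0.05 in that fit. All 7 AL-old mice lay above all 5 AL-young mice in raw methylation at 5 of the 17 tested members with 20 reads in every AL mouse. These 5 were the called sites. The share over all such sites was 1.84%, and sites of a close pair count separately in both. On the authors' adjusted scale AL-old 25 fell below the highest AL-young mouse at the first Runx2 intron site and at the called Runx3 site.

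**Figure D1:**
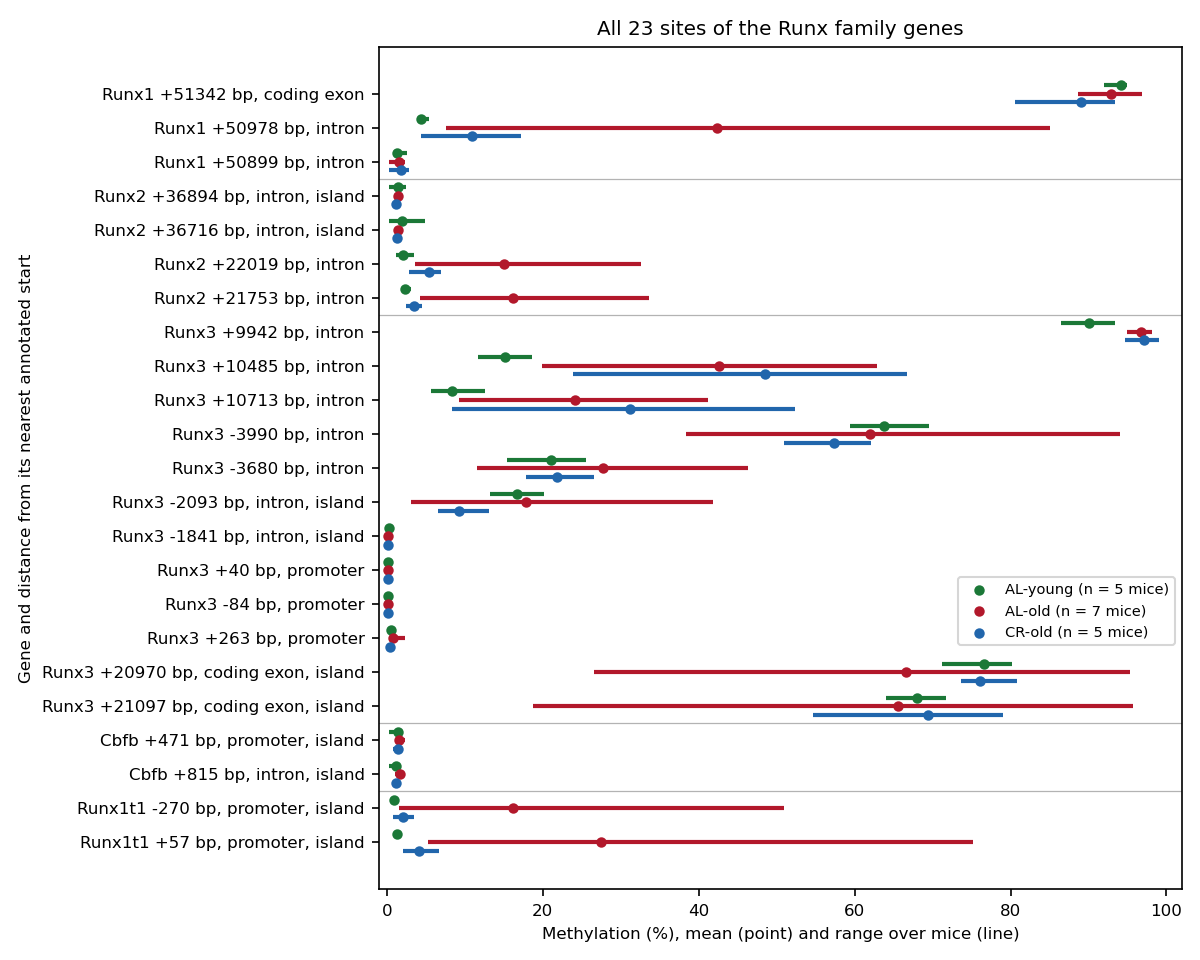
Methylation in percent (x axis) at all 23 sites, labelled by gene, distance from the nearest annotated start of that gene and location (y axis), with a point for the group mean and a line for the range over mice with at least 20 reads. The widest AL-old ranges belong to the gained Runx1 intron site, the Runx3 coding exon and gene body sites and the Runx1t1 promoter, while the Runx3 promoter, Runx2 island and Cbfb sites stay near 0 in all 3 groups.

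In CR-old compared with AL-old mice 1 of the 22 members was lower and 0 were higher, while 1.67% of all sites were called lower and 1.56% higher. The lower site was the one just inside the Runx1t1 transcript, and its call depended on the mice and settings used. The median difference over the 22 members was -0.21 points, against -0.04 over all sites. Between CR-old and AL-young mice edgeR called none of the 22 members and none of the 22561 sites (0.0% higher and 0.0% lower), although 5 members and 1568 sites had an unadjusted p-value under 0.05, and limma on adjusted values called 2 of all the sites and none of the members. This count depended on the mice fitted. The edgeR fit on AL-young and CR-old mice alone called 172 sites higher and 1338 lower, with 5 members higher (the first Runx2 intron site, the Runx3 sites at 9.94, 10.48 and 10.71 kb and the Runx1t1 site inside the transcript). The fit on low-correction mice called 67 and 478 sites, with 2 members, both of the Runx3 intron pair, higher. The age and diet comparisons share the AL-old mice, so their values are set side by side below and were not correlated with each other.

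Runx1 is encoded on the minus strand of chromosome 16. The gained site at chr16:92644917-92644922 lies in an intron, outside islands and promoters, 50978 bp into the gene from the nearest annotated start. Methylation there was 5.36, 4.46, 4.12, 3.82 and 3.81% in the AL-young mice. In the AL-old mice it ranged from 7.56% in AL-old 25 through a median of 44.6% to 85.0% in AL-old 14. In the CR-old mice it was 14.3, 17.2, 11.1, 7.77 and 4.31%. Every AL-old mouse was above every AL-young mouse, 6 of the 7 were above every CR-old mouse, and the CR-old mice overlapped with the AL-young mice only through CR-old 22. Mean methylation was 4.31 ± 0.642% for AL-young (SD, n = 5), 42.4 ± 23.9% for AL-old (n = 7) and 10.9 ± 5.12% for CR-old mice (n = 5). These values chose the genes and carry no test. On the authors' adjusted scale the means were 4.45, 55.0 and 12.9%. Among the 11 low-correction mice alone, the mean of AL-old 25 and 27 was 23.0 points above AL-young.

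The neighbours of the gained site did not share its values. The intron site 79 bp further along, at chr16:92644996-92645001, was methylated at 1.35 ± 0.776% for AL-young, 1.51 ± 0.830% for AL-old and 1.82 ± 1.09% for CR-old mice. Its highest value in any mouse was 2.87%, and the 3 groups overlapped throughout. AL-old 14, with 85.0% at the gained site, had 2.31% at this one. Differences are given below as the log2 of the odds ratio of methylation between groups (the log2 odds scale), and here the age difference was 0.12 (SE 0.80), with an adjusted p of 1 in edgeR. This neighbour was read at a similar depth, since the gained site had 1.10 to 1.73 times as many reads in each mouse. Over 17 mice the methylation of both sites had a Pearson correlation of 0.18.

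On the other side, 364 bp away, the Runx1 coding exon site at chr16:92644553-92644558 was almost fully methylated. In raw methylation it stood at 94.1 ± 1.22% for AL-young, 92.9 ± 3.12% for AL-old and 89.1 ± 5.09% for CR-old mice. CR-old 06, a high-correction mouse, was lowest with 80.6%. On the authors' adjusted scale the means were 94.3, 95.8 and 90.7%. There every CR-old mouse (88.24 to 92.64%) lay below every AL-young and AL-old mouse (92.67% or higher), though only just. How often this occurs over all sites was not computed. The age difference was -0.14 (SE 0.77) and the diet difference -0.77 (SE 0.64) on the log2 odds scale, and neither passed the test (adjusted p = 1 and 0.611 in edgeR). The 3 sites thus comprised a methylated exon site, a site that ranged from 3.81 to 85.0% between mice, and an unmethylated intron site.

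**Figure D2:**
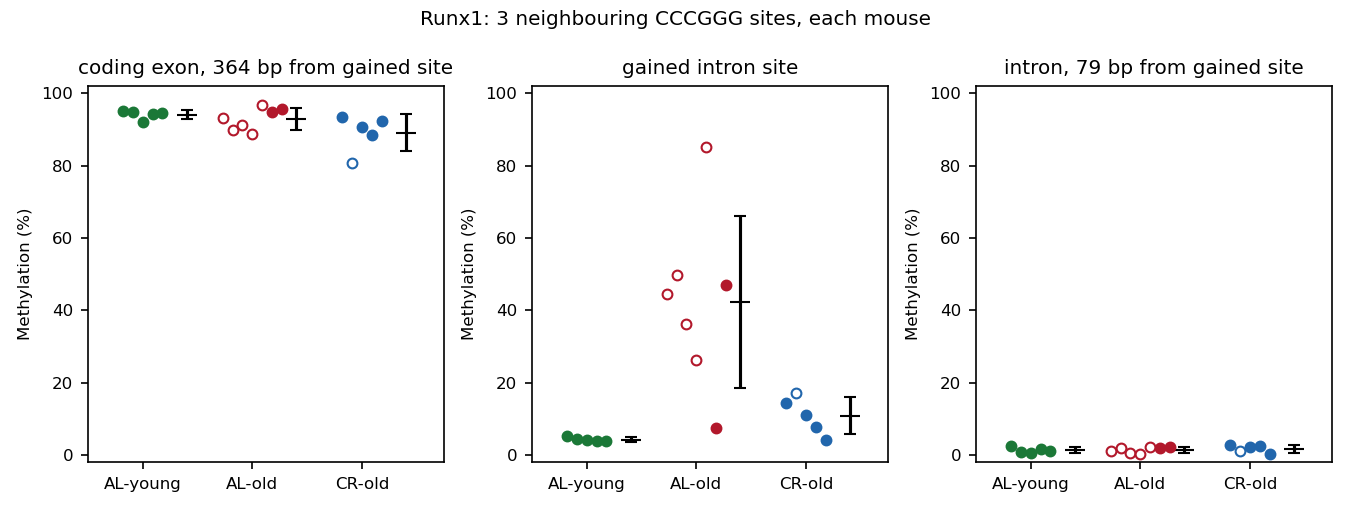
Methylation in percent (y axis) of each mouse (points) in the 3 groups (x axis) at the coding exon site, the gained intron site and the neighbouring intron site of Runx1, with mean and SD in black and high-correction mice as open points. At the gained site every AL-old mouse lies above every AL-young mouse, while the CR-old mice overlap with both groups. At its neighbours the exon site stays at 80.6% or higher and the second intron site at 2.87% or lower in every mouse.

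The other 27 CCCGGG sites of the Runx1 region were too thinly covered, with at most 1 mouse reaching 20 reads at any of them. They include both promoter sites of the region. At the site 186 bp upstream of the proximal Runx1 start, chr16:92697759-92697764, all mice together gave 0 methylated reads of 47 in AL-young, 0 of 22 in AL-old and 0 of 19 in CR-old mice. Counts this small leave shares of up to 6.38, 13.6 and 15.8% possible, so a moderate gain at this site was not detectable at this depth. The other promoter site, chr16:92696080-92696085, lies in an island and was mostly methylated. There 21 of 33 pooled reads (63.6%) were methylated in AL-young, 6 of 11 (54.5%) in AL-old and 17 of 21 (81.0%) in CR-old mice, with 95% Wilson intervals of 46.6 to 77.8%, 28 to 78.7% and 60.0 to 92.3% that overlap.

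Runx2 lies on the minus strand of chromosome 17, and its 4 members also lie within the annotated gene Supt3h. A pair of intron sites outside islands, 266 bp apart at chr17:44929156-44929161 and chr17:44929422-44929427, was higher in AL-old mice. The first site had 3.45, 2.66, 1.72, 1.38 and 1.15% in AL-young mice. It ran from 3.57% through a median of 8.90% to 32.6% within the AL-old group, and CR-old mice had 5.17, 2.87, 6.89, 6.38 and 5.49%. All AL-old mice were above all AL-young mice in raw methylation, though AL-old 25 only just. On the adjusted scale AL-old 25 (3.13%) was below AL-young 15 (3.46%). In raw values AL-old 13 and 27 stood far above the other 5, which reached 12.1% at most. The means were 2.07 ± 0.961% for AL-young (n = 5), 15.0 ± 12.3% for AL-old (n = 7) and 5.36 ± 1.55% for CR-old mice (n = 5). The age difference was 2.81 (SE 0.69) on the log2 odds scale with an adjusted p of 0.00329 in edgeR. In low-correction mice alone, with AL-old 25 and 27 far apart at 3.57 and 32.6%, it was 2.95 with an adjusted p of 0.0196.

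The second Runx2 site differed from the first by at most 6.26 points in any mouse. Its AL-young values were 3.06, 2.49, 1.96, 1.78 and 2.44%, AL-old mice spanned 4.28% to 33.6% with a median of 11.5%, and CR-old mice had 4.39, 3.31, 4.47, 2.82 and 2.39%. AL-old 13 and 27 were again the highest. With age the difference was 2.70 (SE 0.67, adjusted p = 0.00377 in edgeR). CR-old mice overlapped with AL-young mice here, and with AL-old mice only through AL-old 25. The diet difference of -2.13 (SE 0.66) did not pass the test, with an adjusted p of 0.055 in edgeR. It did so in edgeR without AL-old 08 (adjusted p = 0.036) or without AL-old 25 (adjusted p = 0.012). With all mice it also passed with the correction factor as an offset and in limma on adjusted values. At the first site the diet difference was -1.31 (SE 0.67, adjusted p = 0.339 in edgeR). The difference between CR-old and AL-young mice was 1.51 (SE 0.72, adjusted p = 0.695) at the first and 0.57 (SE 0.70, adjusted p = 0.832) at the second site. In the fit on AL-young and CR-old mice alone the first of these passed the test (1.51, adjusted p = 0.0175).

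The other Runx2 members, 178 bp apart in an island at chr17:44913785-44914678, also in an intron, were unmethylated. Over all mice of a group the first, at chr17:44914281-44914286, gave 0 methylated reads of 321 in AL-young, 0 of 197 in AL-old and 0 of 218 in CR-old mice, and these counts leave shares of up to 0.935, 1.52 and 1.38%. The second gave 1 of 339, 0 of 201 and 0 of 210. These pooled counts weight mice by their depth, and they cover counting error only. The Runx2 proximal promoter sites were not members, since at most 2 mice reached 20 reads there.

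Runx3 had the densest coverage, with 12 of its 27 sites passing. Its gene runs on the plus strand of chromosome 4 from 134676567, and the members are described along it by their distance from that first annotated start. Methylation ran from at least 86.5% in each of 13 mice at 9.94 kb to at most 2.31% in every mouse at the proximal promoters around 32.55 to 33.12 kb, and returned to intermediate and high levels in the last coding exon at 54.75 and 54.88 kb.

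**Figure D3:**
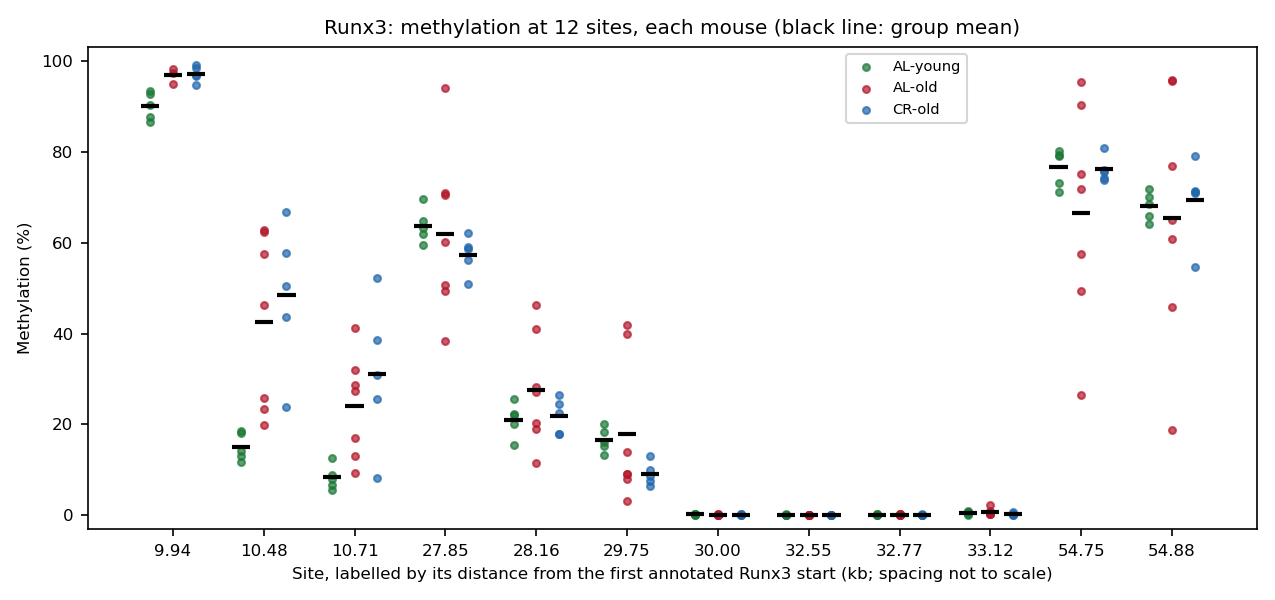
Methylation in percent (y axis) at the 12 Runx3 sites in gene order (x axis, evenly spaced and labelled by distance from the first annotated start in kb) for each mouse with at least 20 reads, with group means as black lines. AL-old and CR-old mice lie above AL-young mice at 10.48 kb, all groups are near 0 from 30.0 to 33.12 kb, and the AL-old mice are the most spread at both coding exon sites.

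The intron site at chr4:134687052-134687057, at 10.48 kb, was higher in AL-old mice. It had 18.2, 11.7, 18.6, 13.1 and 14.2% in AL-young mice. It ran from 19.9% through a median of 46.3% to 62.8% within the AL-old group, and CR-old mice had 43.7, 23.8, 50.5, 57.8 and 66.8%. Every AL-old and every CR-old mouse was above every AL-young mouse, and AL-old and CR-old mice overlapped over almost their whole ranges. The means were 15.2 ± 3.12% (n = 5), 42.6 ± 19.1% (n = 7) and 48.5 ± 16.2% (n = 5). The age difference was 2.01 on the log2 odds scale (SE 0.65, adjusted p = 0.0337 in edgeR). It had an adjusted p of 0.0661 in the low-correction mice alone, 0.0731 when fitted on AL mice only, and 0.0509 to 0.0973 without any one of AL-young 15, 16, 28, 29 or 30 or AL-old 09, 10, 13 or 27. In raw methylation 3 of the 7 AL-old mice (08, 14 and 25) lay between 19.9 and 25.9%, and CR-old 06 was the CR-old mouse in that range. On the adjusted scale AL-old 08 stood at 52.7% and CR-old 06 at 36.1%, while AL-old 14 and 25 had 29.9 and 17.8%.

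For this Runx3 site the direction of the diet difference depended on the scale. The CR-old mean was 5.96 points above the AL-old mean in raw methylation, whereas the difference was -3.04 points on the authors' adjusted scale, with means of 51.0 and 54.1%. CR-old minus AL-old was 0.40 on the log2 odds scale (SE 0.66, adjusted p = 0.870 in edgeR), and CR-old minus AL-young was 2.42 (SE 0.70). The latter did not pass the test over all mice (adjusted p = 0.276) but did in the low-correction mice (2.79, adjusted p = 0.00255) and in the fit on AL-young and CR-old mice alone (2.41, adjusted p = 9.08e-05). The lowest CR-old value, 23.8%, belonged to the high-correction mouse CR-old 06.

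The next Runx3 site, 228 bp on at chr4:134687280-134687285, was lower than the first in 17 of 17 mice. Its raw means were 8.41% for AL-young, 24.1% for AL-old and 31.2% for CR-old mice, and on the adjusted scale the old groups changed order, with 34.9% for AL-old and 32.5% for CR-old mice. Its AL-young values were 12.6, 6.74, 8.98, 8.08 and 5.65%, AL-old mice spanned 9.28% to 41.2% with a median of 27.3%, and CR-old mice had 25.6, 8.31, 31.0, 38.7 and 52.3%. AL-young and AL-old mice overlapped through AL-old 08. The age difference of 1.71 (SE 0.65) missed the threshold with an adjusted p of 0.0824 in edgeR. It passed without AL-old 08 (1.95, adjusted p = 0.0442) and in low-correction mice (2.11, adjusted p = 0.0258). With all mice it also passed with the correction factor as an offset, with high correction as a covariate and in limma on adjusted values. CR-old minus AL-old was 0.50 (SE 0.67, adjusted p = 0.797) and CR-old minus AL-young 2.21 (SE 0.72, adjusted p = 0.396; low-correction mice 2.70, adjusted p = 0.00241). The methylated intron site 543 bp before the pair, chr4:134686509-134686514, stood at 90.1 ± 3.01% for AL-young (n = 5), 96.8 ± 1.68% for AL-old (n = 3) and 97.1 ± 1.73% for CR-old mice (n = 5). The remaining AL-old mice had under 20 reads, with 67.9% in AL-old 08, 90.6% in AL-old 25, 96.9% in AL-old 13 and 96.4% in AL-old 27. Neither the age difference of 0.97 (SE 0.80, adjusted p = 0.519 in edgeR) nor CR-old minus AL-young (2.30, SE 0.94, adjusted p = 0.627) passed the test over all mice.

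Closer to the proximal Runx3 start, sites at 27.85 and 28.16 kb, 310 bp apart outside islands, held intermediate methylation without a group difference that passed the test. The first, chr4:134704421-134704426, had 59.5 to 69.5% in AL-young, 38.3 to 94.1% in AL-old and 50.9 to 62.1% in CR-old mice. The second, chr4:134704731-134704736, had 15.4 to 25.5% in AL-young, 11.5 to 46.3% in AL-old and 17.8 to 26.5% in CR-old mice. The AL-old mice enclosed both other groups at each site. They moved in opposite ways in single mice, since AL-old 14 was highest at the first with 94.1% and lowest at the second with 11.5%, and AL-old 13 was lowest at the first with 38.3% and next to highest at the second with 41.0%. AL-old 13 has the largest correction factor, and on the adjusted scale it stood at 71.1% at the first site, above the AL-young mean, while AL-old 27 was lowest with 48.1%. AL-old 14 remained highest at the first site and lowest at the second. The Pearson correlation of the raw values of both sites over 17 mice was -0.56.

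The Runx3 island at chr4:134706231-134706956, upstream of the proximal promoters, held a pair of sites 252 bp apart with very different levels. At chr4:134706318-134706323 methylation was 18.3, 20.2, 13.2, 16.2 and 15.2% for the AL-young mice and 13.1, 7.64, 9.95, 8.69 and 6.55% in CR-old mice. Among AL-old mice it was 41.8% in AL-old 27, 40.0% in AL-old 13 and at most 14.04% in the other 5, down to 3.12% in AL-old 08. CR-old mice lay below AL-young mice without overlap, yet the difference of -1.01 (SE 0.70) did not pass the test (adjusted p = 0.732 in edgeR). The age difference was -0.36 (SE 0.67, adjusted p = 0.841) while the AL-young mean was 16.6% and the AL-old mean 17.9%, so the sign differs between the model and the means.

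At the other site of this island, chr4:134706570-134706575, AL-young mice had 4 methylated reads of 5006, AL-old mice 1 of 2831 and CR-old mice 3 of 2876. The first site was higher in 17 of 17 mice, at a similar depth in each (0.95 to 1.10 times the reads). The 3 sites in the proximal promoters, 1 of them in a transcribed exon outside coding sequence and the others in introns, were unmethylated as well. At chr4:134709115-134709120 there were 2 methylated reads of 5235 in AL-young, 0 of 3530 in AL-old and 0 of 2962 in CR-old mice, and the 0 counts leave shares of up to 0.0850 and 0.101%. At chr4:134709336-134709341 there were 4 of 7130, 4 of 4366 and 2 of 4027. The highest value in a single mouse at any promoter member of Runx3 was 2.31%, in AL-old 27 at chr4:134709683-134709688. Age differences there were between -1.45 and 0.48 on the log2 odds scale and none passed the test.

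The last Runx3 exon held a pair of coding sites 127 bp apart in an island, chr4:134731321-134731326 and chr4:134731448-134731453. The first had 71.2 to 80.2% in AL-young and 73.7 to 80.8% in CR-old mice, but 26.5, 49.4, 57.6, 71.7, 95.3, 75.0 and 90.2% in AL-old 08, 09, 10, 13, 14, 25 and 27. The second had 64.0 to 71.7% in AL-young, 54.7 to 79.1% in CR-old and 18.8 to 95.7% in AL-old mice, with AL-old 08 lowest and AL-old 14 highest at both. The AL-old SD was 24.0 and 27.5 points, against 4.09 and 3.12 in AL-young mice and 2.82 and 8.92 in CR-old mice. The first site averaged 76.6% for AL-young, 66.5% for AL-old and 76.1% for CR-old mice, and no difference passed the test (age -0.43, SE 0.71, adjusted p = 0.808 in edgeR; diet 0.38, SE 0.71, adjusted p = 0.908). On the adjusted scale these means were 77.0, 76.9 and 78.1%, so the lower raw mean of the AL-old mice was not seen there, and AL-old 08 stood at 53.5%. The adjusted AL-old SD was 15.7 and 19.3 points at the first and second site, against 5.46 and 3.99 in AL-young mice.

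A wider spread in AL-old mice was common but not particular to these genes. Of the 18 members with 20 reads in all 17 mice, 12 (66.7%) had a larger SD of raw methylation in AL-old than in both other groups, and so had 66.0% of all such sites. Correction factors ran from 0.872 to 3.96 in AL-old mice and from 0.896 to 1.13 in AL-young mice. Whether this widened the raw SD of the AL-old mice was not tested. In raw methylation the mice at the extremes recurred. AL-old 13 and 27 were the 2 highest mice at both Runx2 intron sites and at Runx3 28.16 and 29.75 kb. On the adjusted scale AL-old 09 (47.5%) stood above AL-old 27 (43.8%) at 28.16 kb. AL-old 14 was the highest mouse at the gained Runx1 site, at Runx3 27.85 kb and at both Runx3 coding exon sites. AL-old 27 has a low and AL-old 13 a high correction factor.

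Cbfb, the shared partner subunit, had 2 members in its promoter island at chr8:107694162-107695823, of which 1 lies within 500 bp of the start. At chr8:107695045-107695050 there were 0 methylated reads of 348 in AL-young, 1 of 157 in AL-old and 0 of 200 in CR-old mice, and at chr8:107695389-107695394 there were 0 of 381, 0 of 180 and 0 of 218. The 0 counts leave shares of up to 0.862 and 1.50% at the first site and 0.787, 1.67 and 1.38% at the second, in the order of the groups. Both sites were among the thinnest members, with a median of 27 and 31 reads per mouse.

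Runx1t1, the corepressor gene, gave the clearest differences among the tested members. Both sites lie in its promoter island at chr4:13670081-13671167, 1 of them 270 bp upstream of the annotated start and the other 57 bp inside the transcript, in an exon outside coding sequence. At the upstream site, chr4:13670313-13670318, methylation was 0.73, 0.81, 1.42, 1.19 and 0.60% in AL-young mice. Among AL-old mice it was 1.60, 15.6, 2.36, 10.2, 30.9, 1.87 and 50.9% in AL-old 08, 09, 10, 13, 14, 25 and 27. In CR-old mice it was 2.08, 3.48, 0.80, 1.59 and 2.55%. All AL-old mice were above all AL-young mice, AL-old 08 only just, with 2 methylated reads of 155 against 4 of 316 in AL-young 28. Of the AL-old mice 4 were above 10% and the other 3 were within the CR-old range. The age difference was 3.65 on the log2 odds scale (SE 0.84, adjusted p = 0.00176 in edgeR). In low-correction mice it was 4.65 (adjusted p = 0.0103), with AL-old 25 and 27 far apart at 1.87 and 50.9%.

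At the site inside the transcript, chr4:13670640-13670645, methylation was 1.50, 1.08, 1.04, 1.47 and 1.14% in AL-young mice. Among AL-old mice it was 5.69, 26.0, 8.45, 16.6, 55.1, 5.25 and 75.2% in the same order as above. In CR-old mice it was 4.34, 6.70, 4.65, 2.04 and 2.58%. Every AL-old and every CR-old mouse was above every AL-young mouse, and CR-old 06 was above AL-old 08 and 25. The means were 1.25 ± 0.221% (n = 5), 27.5 ± 27.4% (n = 7) and 4.06 ± 1.85% (n = 5). With age the difference was 4.38 (SE 0.80, adjusted p = 9.08e-05 in edgeR). In low-correction mice it was 5.26 (adjusted p = 0.00579), with AL-old 25 and 27 far apart at 5.25 and 75.2%.

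The diet difference at the Runx1t1 site inside the transcript was -2.66 (SE 0.77) with an adjusted p of 0.0367 in edgeR, the single call among the tested members. It had an adjusted p of 0.0544 in low-correction mice, 0.0796 with high correction as a covariate, 0.0883 in the fit on old mice alone, and 0.0606 to 0.132 without any one of AL-old 09, 14 or 27 or CR-old 02, 19, 20 or 22. At the upstream site the diet difference was -2.45 (SE 0.82, adjusted p = 0.0789 in edgeR), and it passed the test without AL-old 08 (adjusted p = 0.0306), AL-old 10 (0.0320) or AL-old 25 (0.0150). With all mice it also passed with the correction factor as an offset and in limma on adjusted values. CR-old minus AL-young was 1.71 (SE 0.81, adjusted p = 0.695; 1.75 and adjusted p = 0.0113 in the fit on these groups alone) at the site inside the transcript and 1.20 (SE 0.86, adjusted p = 0.732) upstream. The sign of the diet difference was negative at both sites under every alternative tried.

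**Figure D4:**
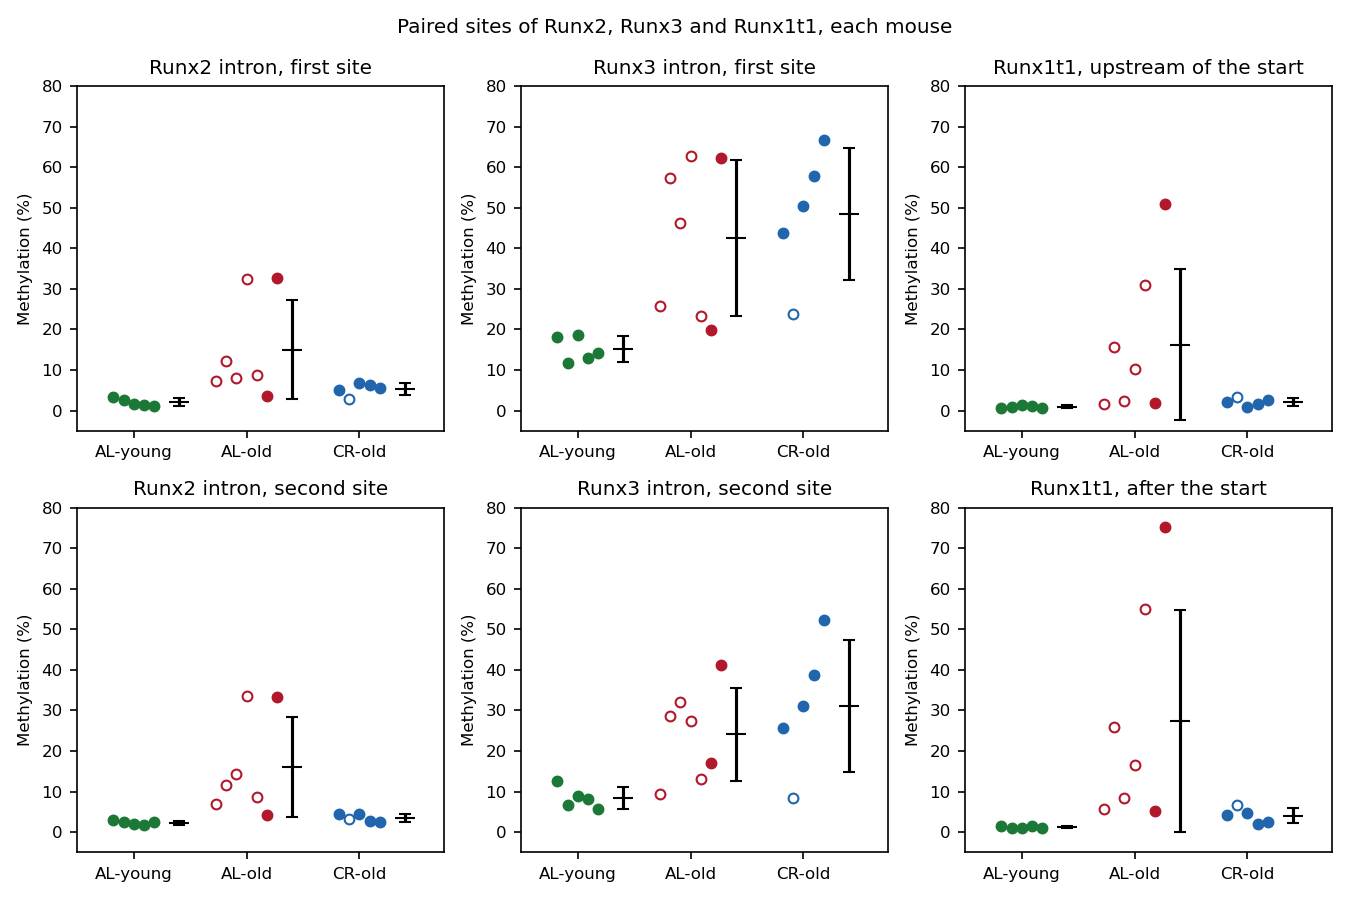
Methylation in percent (y axis) of each mouse (points) in the 3 groups (x axis) at the pairs of Runx2 intron, Runx3 intron and Runx1t1 sites, with mean and SD in black and high-correction mice as open points. CR-old mice lie near the AL-young mice at Runx2 and Runx1t1, at 6.89% or lower, and among the AL-old mice at Runx3.

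Close pairs of sites differed in how far methylation was shared over short distances. The Runx2 intron pair had read counts within 0.97 to 1.04 of each other and a Pearson correlation of methylation of 0.98 over 17 mice, and the Runx1t1 pair, with a ratio of 0.93 to 1.01, had 0.99. The Runx3 intron pair at 10.48 and 10.71 kb had 0.93 and the Runx3 coding exon pair 0.94. By contrast, the Runx3 intron pair at 27.85 and 28.16 kb, 310 bp apart with a read ratio of 0.99 to 1.12, had -0.56. Neither of its sites was near 0 in any mouse. The Runx1 intron pair had 0.18 at 79 bp, the shortest distance of all, and the Runx3 island pair 0.17 at 252 bp. In these pairs the second site was near 0 in every mouse (at most 2.87 and 0.36%). Their correlations thus cannot be read like those of the other pairs. These values describe the same mice and libraries and carry no test. At Runx1t1 the site inside the transcript was above the upstream site in 16 of 17 mice, by up to 24.3 points.

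**Figure D5:**
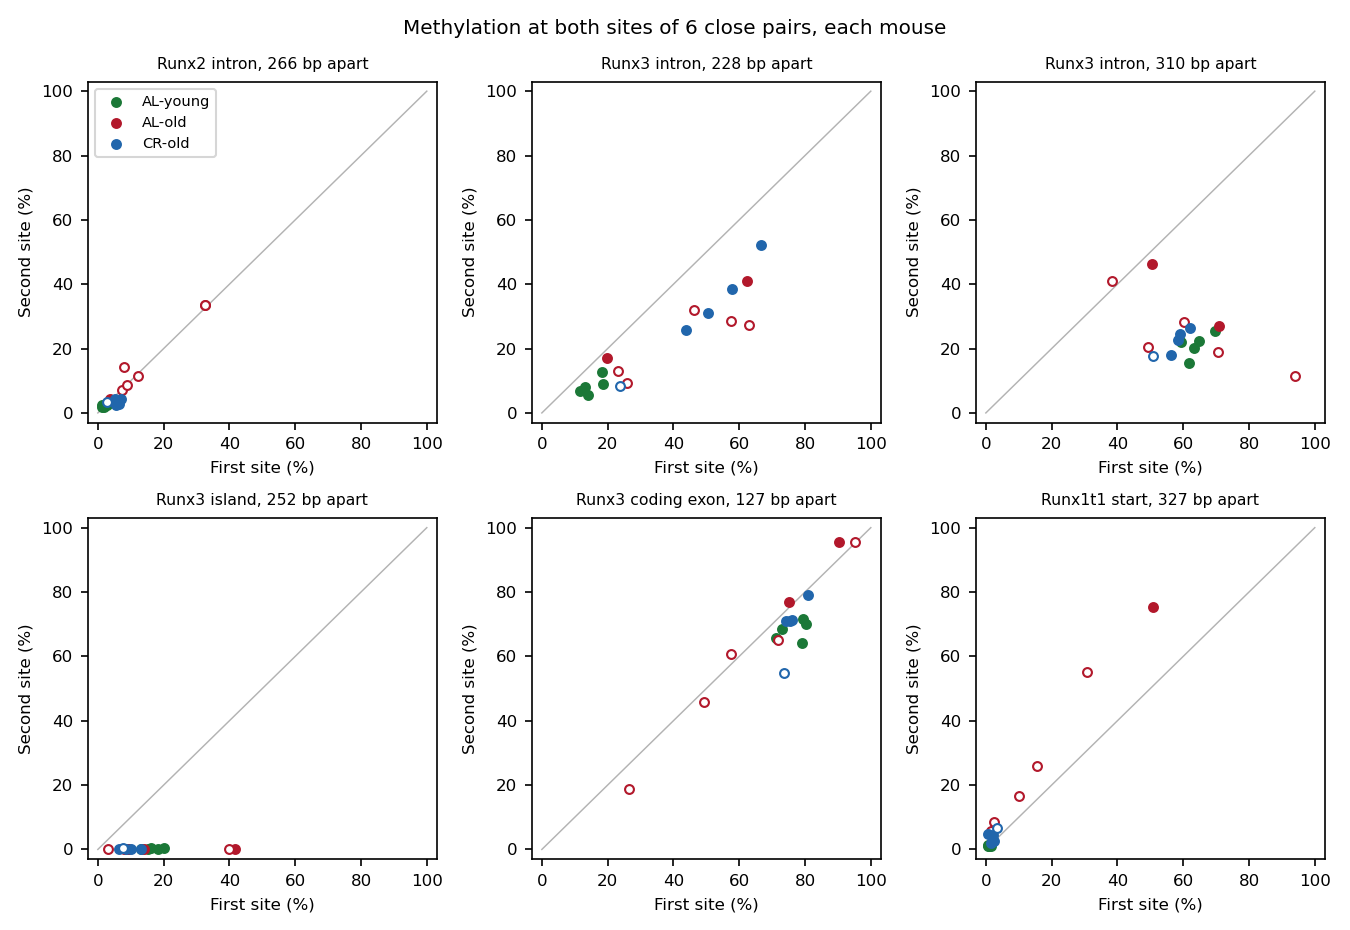
Methylation in percent at the second site (y axis) against the first site (x axis) of 6 close pairs, 1 point per mouse coloured by group, high-correction mice as open points, and the grey line for equal values. Points follow the line at the Runx2 intron and the Runx3 coding exon, lie above it at Runx1t1 and below it at the first Runx3 intron pair, and lie flat at 0.36% or lower at the Runx3 island. At the Runx3 intron pair 310 bp apart, 16 of 17 mice lie below the line and the points do not rise along it.

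Likeness to the gained Runx1 site was measured by Pearson correlation of methylation over 17 mice. Among the members it was 0.78 (Spearman's rho 0.92) for the Runx1t1 site inside the transcript and 0.71 (rho 0.76) for the upstream one, 0.45 and 0.47 (rho 0.87 and 0.89) for the Runx2 intron pair, and 0.21 and 0.08 (rho 0.50 and 0.43) for the Runx3 intron pair. Among 11937 sites with at least 100 reads in all 17 mice outside the 5 genes, 4 of the 5 most alike were a coding exon site of Rims1 (chr1:22540751-22540756, r = 0.916), an intergenic site (chr7:144514651-144514656, r = 0.905), a promoter site of Trhde (chr10:114238535-114238540, r = 0.900) and a coding exon site of Ntsr2 (chr12:16660498-16660503, r = 0.896). These 4 lie in islands, whereas the gained site does not. The correlations rest on the differences between groups as well as on those between mice.

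Around these genes, a list of 41 corepressors, coactivators, partner factors and targets of RUNX proteins had sites with the same coverage in 21 genes. Of its 93 sites, 4 (4.3%) were higher and 6 (6.45%) lower in AL-old than in AL-young mice by edgeR, close to the 3.74% and 6.09% over all sites. In CR-old against AL-old mice 3 (3.23%) were higher and 3 (3.23%) lower, against 1.56% and 1.67% over all sites, and between CR-old and AL-young mice none was called. Cbfa2t3 encodes a corepressor of the same family as Runx1t1. Its intron site at chr8:125200154-125200159, also within the gene Gm20388, was methylated at 67.8 ± 6.72% for AL-young (n = 5), 31.7 ± 31.3% for AL-old (n = 7) and 55.2 ± 17.5% for CR-old mice (n = 5), a log2 odds difference with age of -2.77 (adjusted p = 0.0132 in edgeR) that was 0.60 in the low-correction mice (adjusted p = 0.663). Tcf3 encodes a partner factor in blood cells. An intron site of it, chr10:79890187-79890192, fell with age from 99.3 ± 0.256% (n = 5) to 86.3 ± 16.5% (n = 7) (-4.02, adjusted p = 0.00383 in edgeR; low-correction mice -3.18, adjusted p = 0.0448). The other called Tcf3 site, in an intron at chr10:79881986-79881991, went from 99.2 ± 0.414% to 89.2 ± 16.0% (-3.20, adjusted p = 0.0173 in edgeR), but in low-correction mice the difference was 0.15 (adjusted p = 1), and with the correction factor as an offset it missed the threshold (-2.50, adjusted p = 0.0542).

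The coverage rule left 71 of the 94 sites of the 5 gene regions outside, 12 of them in a promoter or island. The members just inside it, covered in 13 mice, were the Runx3 site at 9.94 kb and the Cbfb site nearer the start. Just outside it lay 2 Runx3 promoter sites. At chr4:134710681-134710686, with 11 mice, pooled reads were 14.9% methylated in AL-young (39 of 261), 3.96% in AL-old (4 of 101) and 6.99% in CR-old mice (10 of 143). At chr4:134710241-134710246, with 10 mice, no methylated read was found among 204, 117 and 138.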

How the data were processed

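In DREAM, DNA spiked with methylation standards is cut by SmaI, which methylation blocks, and then by XmaI, which is not blocked, so that read ends record methylation at each CCCGGG. Reads were aligned to mm9 according to the methods of the study, and the submitters' processing notes name Bowtie2, SAMtools and the builds mm9 and mm10. For each mouse the authors deposited counts of methylated and unmethylated reads per site, and methylation in percent, raw and adjusted by the standards. The raw percent followed 100 times methylated reads plus 0.5 over reads plus 1, and it is the value given unless stated. The deposited position lay 3 bases after the start of the CCCGGG at all 173449 sites. Genes came from GENCODE release M1, and islands were called on NCBIM37 (200 bp or longer, at least 50% GC, observed to expected CpG of 0.6 or higher). Runx2 has 2 annotation entries, which were joined.

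The members and gene lists were chosen with earlier results of these data known. For testing, edgeR 4.0.16 (R 4.3.3) fitted its quasi-likelihood model to the counts of all 22561 sites, using 1 coefficient per mouse, a methylation coefficient for each group and 1 dispersion estimated on 5000 sites, after tests on simulated data. Values under 20 reads were left out of means and ranges but not of the fit. At 20 reads a site at 50% has a 95% Wilson interval from 29.9 to 70.1% and at 100 reads from 40.4 to 59.6%, and 3 reads, taken as the upper limit of a count of 0, are 15.0 and 3.0%. Intervals and limits cover counting error only. Named sites were the gained site, its neighbours, every called member, and for each gene the member nearest a start and the most variable one. The 5 most alike sites and the pathway sites with the largest differences were named too, and not all of them are reported here. Python 3.11.15, pandas 2.3.3 and limma 3.58.1 were also used.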

Additional observations from a re-analysis of the deposited data

Results flagged for a closer look

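Of 29 groups of values at the named sites, 1 held a mouse set apart from the rest of its group, and chance alone sets apart about 1 group in 20. At the Runx1 coding exon site AL-young 28 had 92.02% methylation, the nearest AL-young mouse 94.14%, and the gap made up 0.711 of the range of that group.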

How the results depend on the processing

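The 5 sites called higher in AL-old mice became 4 to 7 under every alternative, 4 to 6 when a mouse was left out, and 0 were lower in each. The sites called were not always the same. In low-correction mice 6 were called, of which 4 were shared with the main fit, and limma called 7, of which 5 were shared. The added sites included the Runx3 site at 10.71 kb in both, and the others are not named here. The 1 diet call became 3 with the correction factor as an offset or with limma, and 0 with high correction as a covariate, in low-correction mice or in the fit on old mice alone. It became 0 to 3 when a mouse was left out, with 3 without AL-old 08 or 25. The CR-old minus AL-young calls rose from 0 to 2 in low-correction mice and to 5 in the fit on both groups alone, and stayed 0 when any mouse was left out. The dispersion was 0.273 in the main fit, 0.113 in low-correction mice and 0.0736 in the fit on both groups alone. The cause was not tested. The other alternatives were 100 reads, sex as a covariate and no minimum difference, and none reversed a result. The offset moved the median age difference over all sites from -0.22 to 0.28 on the log2 odds scale and the calls over all sites from 843 higher and 1373 lower to 1629 and 751, and the diet calls from 351 and 377 to 255 and 1447. Limma called 2083 higher and 821 lower by age, and 247 higher and 1548 lower by diet. With high correction as a covariate they were 1097 and 299 for age and 29 and 294 for diet, and in low-correction mice 1915 and 434, and 37 and 646. CR-old minus AL-young calls were 67 higher and 478 lower in low-correction mice and 172 and 1338 in the fit on both groups. The difference at the gained Runx1 site was 30.9 to 43.9 points for age and -37.2 to -24.3 points for diet when a mouse was left out. Members under 100 reads limit the view of the Runx2 island and Cbfb. No paired analysis was possible because the groups share no mouse numbers.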
